A study of Mus musculus with 16 samples.

Results

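The insulin and insulin-like growth factor (IGF) signaling genes described here were the ligand gene Igf1, the receptor genes Insr and Igf1r, the adaptor genes Irs1 and Irs2, the transcription factor gene Foxo1, and the binding protein genes Igfbp1, Igfbp3, Igfbp4 and Igfbp5. They were chosen by symbol and are 10 of the 57186 genes in the count table, and all 10 were among the 25408 genes with at least 100 counts that were tested. The table holds kidney RNA from 16 male mice, 4 in each of 4 labelled groups. All mice carried Elmo1H/H, an allele that raises Elmo1 expression, so the control groups have it too. Non-diabetic mice were Ins2+/+ and were either untreated (ND_C) or given vitamin B12 (ND_B12). Diabetic mice were Ins2Akita/+, which carry a misfolding insulin that kills pancreatic beta cells, and were either untreated (D_C) or given B12 (D_B12). From 8 weeks of age the treated mice drank B12 at 10 mg/kg daily, for 16 weeks by the labels, while the methods of the study have the kidneys taken at the age of 16 weeks. Ins2Akita/+ mice model insulin deficiency, not insulin resistance.

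Insulin and IGF-1 bind sister receptor tyrosine kinases, which phosphorylate the adaptors IRS1 and IRS2 and so recruit phosphoinositide 3-kinase and activate AKT. AKT keeps the transcription factor FOXO1 out of the nucleus, and FOXO1 in turn drives genes that insulin represses, among them Igfbp1 and Irs2 in liver. IGF binding proteins hold IGF in the circulation and around cells, and the proteases PAPP-A and PAPP-A2 cleave some of them and release it. In kidney both receptors act in tubules and glomeruli, and the IGF system is known for its link to the growth of the kidney in diabetes.

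Before any result, the group labels need a caution. The study's supplementary table lists group means for single genes, and these were compared with the means of all 1820 sets of 4 libraries over 175 genes. The best sets kept 5 libraries in the group of their label and put 11 in another group. Diabetes status was the same for 14 libraries and differed for 2, namely ND_B12 replicate 4 and D_C replicate 1. All 7 libraries that were diabetic by both sources had the opposite treatment in the table, so every direction given below for B12 in diabetic kidneys, and which diabetic group is set against ND_C or ND_B12, is that of the labels alone. Of the 7 that were non-diabetic by both, 2 had the opposite treatment, ND_C replicate 3 and ND_B12 replicate 1. Groups are those of the labels throughout, and results are given with and without the 2 disputed libraries. Those 2 were picked by expression in these same counts. Leaving them out therefore favours separation of the diabetes labels, and p-values without them are a description rather than an independent test. The dates in the library names, whose meaning is not stated, ran from day 0 to day 21 for libraries labelled non-diabetic. They ran from day 21 to day 111 for those labelled diabetic, so date and diabetes can barely be told apart. Date ran with treatment too, from day 0 to 14 in ND_C and from 14 to 21 in ND_B12. It ran from day 21 to 58 in D_C and from 63 to 111 in D_B12, so date and B12 can barely be told apart either. Library totals ran from 65271308 to 91771136 estimated counts. Markers of proximal tubule, thick ascending limb and podocytes were abundant in all 16 libraries. Elmo1 lay between 286 and 497 normalized counts in all 16, and Ins1 and Ins2 had 0 counts in each, which allows up to 3 counts per library, so neither genotype could be checked from RNA.

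The sequences just before the start sites are shown for the members that hold the core of the insulin response element, the stretch through which FOXO1 and insulin act on the Igfbp1 promoter in liver. RefSeq promoter windows, from 250 bases before to 50 bases after the start in build GRCm38.p6, were found for 9 of the 10 genes. The element's core, CAAAACA on either strand (TGTTTTG on the other), was in the windows of 3 of them, Igfbp1, Irs2 and Irs1. It was in 6.283% of all 32851 windows of that length. The FoxO motif GTAAACA, whose other strand reads TGTTTAC and which does not overlap these matches, was in 0 of the 9 windows and in 3.65% of all windows. The 150 bases before the start, 5′ to 3′, follow with the match in capitals.
Igfbp1: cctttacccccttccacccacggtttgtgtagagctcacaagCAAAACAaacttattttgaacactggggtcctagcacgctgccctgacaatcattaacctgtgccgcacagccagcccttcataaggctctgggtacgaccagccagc
Irs2: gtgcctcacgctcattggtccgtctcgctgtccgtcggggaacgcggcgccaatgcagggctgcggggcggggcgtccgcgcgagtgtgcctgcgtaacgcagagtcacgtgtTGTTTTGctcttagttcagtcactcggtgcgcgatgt
Irs1: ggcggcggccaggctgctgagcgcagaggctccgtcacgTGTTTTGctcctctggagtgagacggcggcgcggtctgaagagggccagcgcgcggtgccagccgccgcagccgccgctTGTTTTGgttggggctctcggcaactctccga
The Igfbp1 stretch is chr11:7197637-7197786 (plus strand), with the match starting at base -108. The Irs2 stretch is chr8:11008930-11009079 (minus strand), with the match at -37. The Irs1 stretch is chr1:82291440-82291589 (minus strand), with matches at -111 and -32. These are letter matches only, and binding was not measured.

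Per length, Igfbp4, Igfbp5 and Igfbp3 were the most abundant members on average, while Igfbp1 came below both receptor genes. In TPM (counts divided by transcript length and scaled to the same sum in each library), Igfbp4 averaged 247 ± 50.7 (SD, n = 16), Igfbp5 167 ± 40.3, Igfbp3 118 ± 16.4, Igf1r 68.3 ± 7.70, and Insr 39.4 ± 3.56. Igfbp1 at 20.9 ± 13.2, Irs2 at 20.6 ± 6.80 and Foxo1 at 14.6 ± 1.22 came next, then Irs1 at 7.45 ± 1.13 and Igf1 at 2.51 ± 0.696. The ranges over libraries of Igfbp3 and Igf1r, of Igf1r and Insr, of Foxo1 and Irs1, and of Irs1 and Igf1 did not overlap. All other neighbours in that order overlapped in their ranges. The members also differed in how much they varied between mice. The highest library had 1.29 times the normalized count of the lowest for Foxo1 and for Insr, but 9.71 times for Igfbp1 and 3.13 times for Irs2.

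By the GRCm39 annotation, Igfbp1 (chromosome 11, 7147651 to 7152546, plus strand) and Igfbp3 (chromosome 11, 7156086 to 7164179, minus strand) lie end to end with 3539 bases between them. Igfbp4 is also on chromosome 11 (98932064 to 98945218), Igfbp5 and Irs1 are on chromosome 1, Insr and Irs2 on chromosome 8, Igf1r on chromosome 7, Igf1 on chromosome 10 and Foxo1 on chromosome 3. Igfbp1, Igfbp4 and Igfbp5 overlap no annotated gene. The other 7 overlap between 1 and 4 genes each, nearly all on the opposite strand, such as Igf1os at Igf1, and whether counting used strand is not stated, so reads of such pairs may be shared.

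**Figure D1:**
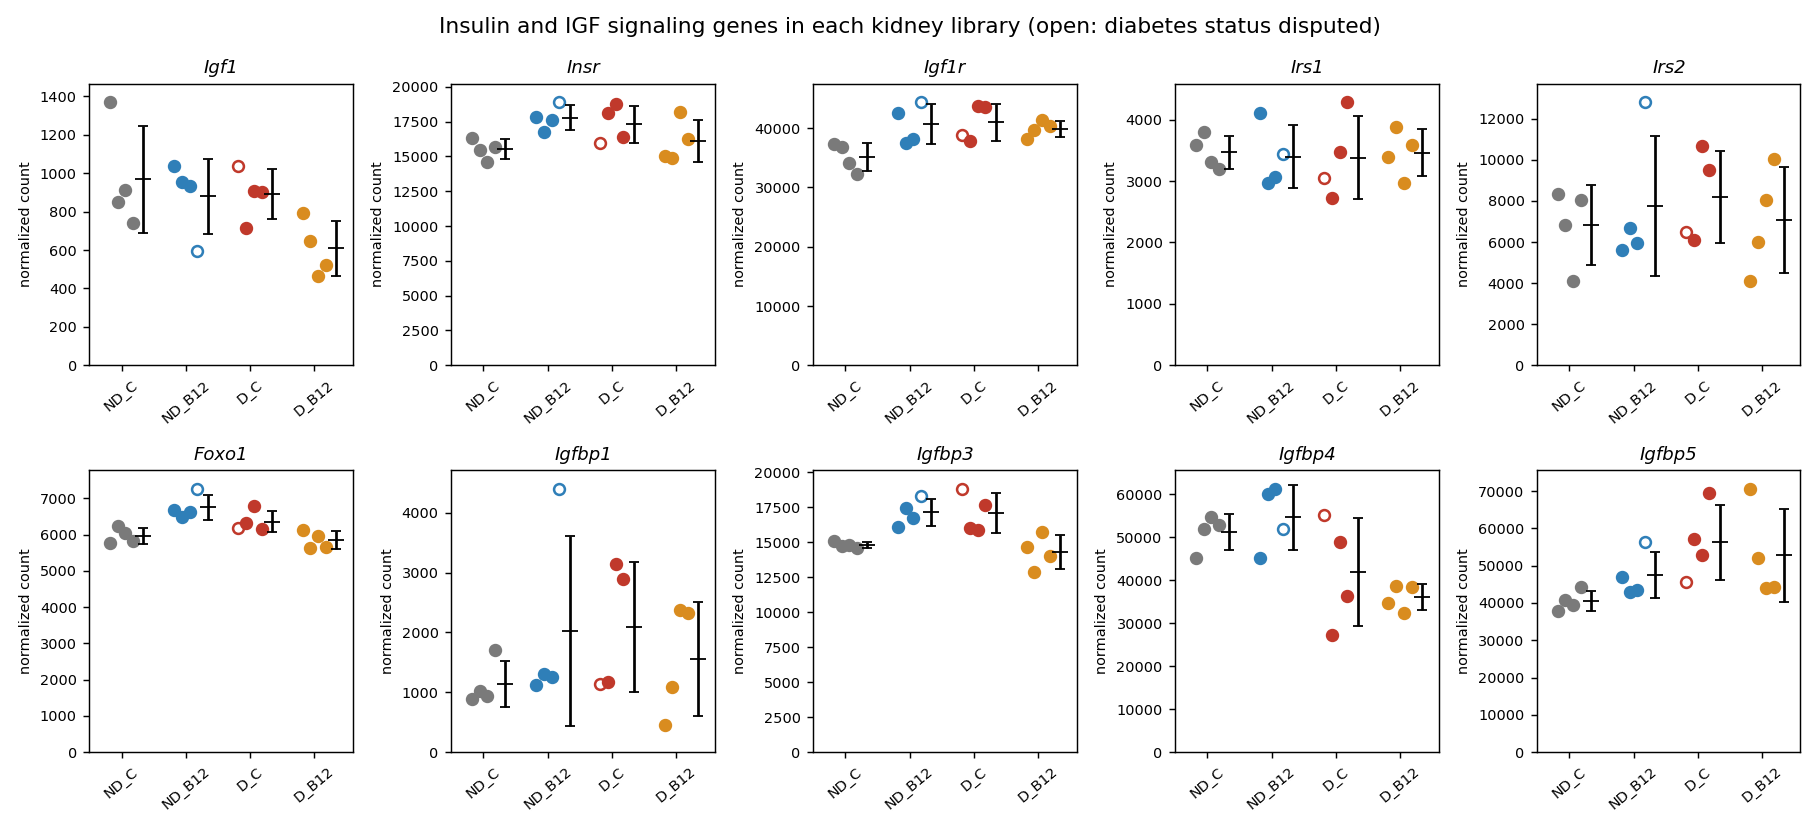
Normalized count (reads divided by the library's size factor, axis from 0) of each of the 10 genes in each of the 16 libraries, by labelled group, with the mean and SD (n = 4) as a bar beside the points. Open points are the 2 libraries of disputed diabetes status, of which ND_B12 replicate 4 is the highest of all 16 for Insr, Irs2, Igf1r, Igfbp1 and Foxo1.

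The first comparison asks what differs in diabetic kidneys, averaged over untreated and B12-treated mice. Igfbp4, whose protein mainly restrains IGF action, had the largest difference relative to its error, at 0.735 times the non-diabetic level with the diabetic label. Igfbp5, which binds matrix and can restrain or prolong IGF action, was at 1.24 times, and Igf1 at 0.798 times. By edgeR's quasi-likelihood test over all 25408 genes, with Benjamini-Hochberg adjustment, 0 of the 10 members passed 0.05, while 3.02% of all genes did. Igfbp4 was at the border, with a log2 fold change of -0.44 ± 0.117 (SE) and an adjusted p of 0.0509. At an unadjusted p below 0.05 there were 3 members, beside 4920 of all 25408 genes. DESeq2 called 1832 of the 25408 genes, 2 of them members, Igfbp4 and Igfbp5. Without the 2 disputed libraries 2 of 10 passed, again Igfbp4 and Igfbp5, where 10.2% of 24831 genes did. The median log2 fold change of the 10 was -0.0013, beside 0.0072 for all genes.

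**Figure D2:**
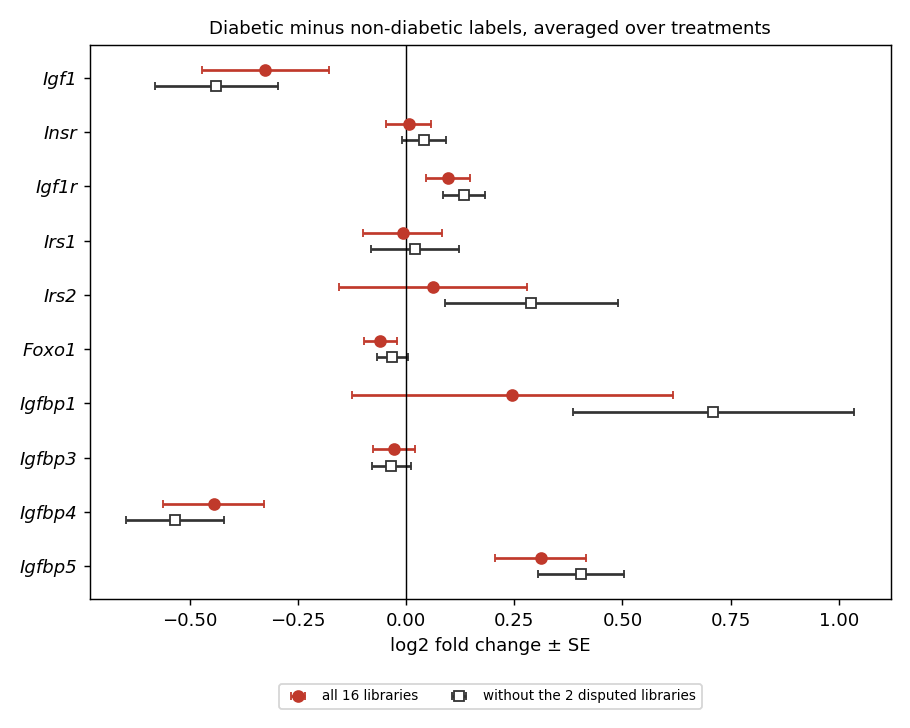
Log2 fold change ± SE of each gene, diabetic minus non-diabetic labels averaged over treatments, with all 16 libraries (filled circles) and without the 2 disputed libraries (open squares). Igfbp4 lies at -0.44 and -0.53 and Igfbp5 at 0.31 and 0.40.

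Igfbp4 normalized counts were 45112, 51936, 54650 and 52981 in ND_C, and 45209, 60000, 61308 and 52034 in ND_B12. They were 55121, 27254, 48976 and 36387 in D_C, and 34725, 38579, 32447 and 38504 in D_B12. The disputed D_C replicate 1 was the highest of the 8 diabetic libraries, and the 4 D_B12 libraries lay below all 8 non-diabetic ones. The mean was 52904 ± 5924 (SD, n = 8) with the non-diabetic label and 38999 ± 8991 (n = 8) with the diabetic label. Without the disputed libraries the log2 fold change was -0.53 ± 0.112, adjusted p 0.00893 (edgeR, 7 libraries a side), and leaving out D_C replicate 1 alone gave 0.0109 and ND_B12 replicate 4 alone 0.0456.

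Igfbp5 counts were 37828, 40670, 39578 and 44197 in ND_C, and 46946, 42816, 43618 and 56303 in ND_B12. They were 45536, 57099, 52982 and 69446 in D_C, and 70645, 52037, 44130 and 44174 in D_B12. Each D_C library was above each ND_C library, whereas 2 of the 4 D_B12 libraries lay just below the highest ND_C library and inside the ND_B12 range. The log2 fold change over treatments was 0.31 ± 0.105 with an adjusted p of 0.113 (edgeR). It was 0.40 ± 0.0998 with an adjusted p of 0.0206 without the disputed libraries, and without D_C replicate 1 alone the adjusted p was 0.0477.

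Igfbp3, the main carrier of IGF in the circulation, was level in this average, at -0.028 ± 0.049 on the log2 scale. Its pattern was instead opposite between treatments, as given with the B12 comparisons. Igfbp1, the acute, insulin-repressed member of the family, averaged 1580 ± 1170 (SD, n = 8) normalized counts with the non-diabetic label and 1824 ± 987 with the diabetic label. In ND_C it was 880, 1019, 940 and 1704, and in ND_B12 1125, 1313, 1258 and 4404. In D_C it was 1135, 1163, 3154 and 2895, and in D_B12 453, 1081, 2382 and 2330. Both labels thus held low and high libraries, and the highest of all was the disputed ND_B12 replicate 4. The log2 fold change was 0.25 ± 0.372 (adjusted p 0.776), and without the disputed libraries 0.71 ± 0.325 (adjusted p 0.194), both by edgeR. It ran from 0.10 to 0.61 with single libraries left out, and with the date as a covariate it turned to -2.43 ± 0.556 (adjusted p 0.131).

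Igf1, which the kidney makes at low level beside what it takes up from blood, had 1371, 853, 912 and 739 normalized counts in ND_C and 1036, 956, 931 and 595 in ND_B12. It had 1038, 717, 907 and 905 in D_C and 793, 649, 467 and 524 in D_B12. The lowest non-diabetic value was again in the disputed ND_B12 replicate 4, and the highest diabetic value in the disputed D_C replicate 1. The log2 fold change was -0.33 ± 0.147 with an adjusted p of 0.237, and -0.44 ± 0.142 with an adjusted p of 0.0662 without these 2 (edgeR).

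The receptor genes differed little. Igf1r, the IGF-1 receptor, was 0.096 ± 0.051 higher on the log2 scale with the diabetic label (adjusted p 0.320), and Insr, the insulin receptor, lay at 0.0056 ± 0.051 (adjusted p 0.967). Insr ranged from 14621 to 18907 normalized counts over the non-diabetic and from 14897 to 18738 over the diabetic libraries. The adaptor genes were as flat on average, with Irs1 at -0.0083 ± 0.091 and Irs2 at 0.061 ± 0.218, the wider error of Irs2 following its wider spread. Irs1 ran from 2975 to 4106 and from 2718 to 4287 normalized counts with the 2 labels. Irs2 was 8354, 6806, 4097 and 8039 in ND_C, 5608, 6672, 5941 and 12816 in ND_B12, 6476, 6089, 10667 and 9527 in D_C, and 4123, 6023, 8066 and 10067 in D_B12. The 4 groups overlapped for Irs2, and ND_B12 replicate 4 stood above all other libraries. Foxo1 lay at -0.059 ± 0.038 (adjusted p 0.423).

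Irs2 and Igfbp1 had the most alike values of the 45 pairs of members. Irs1, whose promoter window holds the same letters, had an r of 0.098 with Igfbp1 and 0.170 with Irs2 over 16 libraries. Whether these letters have a part in any of these values was not tested. For Irs2 and Igfbp1 over the 16 libraries, Pearson's r of log2 normalized counts was 0.875 and Spearman's rho 0.732, given as a description. It was 0.864 without the 2 libraries farthest from the median of Irs2, 0.764 (rho 0.357) among the 8 non-diabetic labels and 0.977 (rho 0.905) among the 8 diabetic labels. Without the disputed ND_B12 replicate 4 the 7 other non-diabetic libraries had an r of 0.313 and a rho of 0.036, so the value among non-diabetic labels rests on that library, while without D_C replicate 1 the 7 diabetic libraries had 0.977 and 0.893. Libraries with high Igfbp1 and Irs2 were ND_B12 replicate 4, D_C replicates 3 and 4, and D_B12 replicates 3 and 4. In both diabetic groups these had the latest dates. In D_C they were at day 58, with replicates 1 and 2 at days 21 and 28. In D_B12 they were at days 101 and 111, with replicates 1 and 2 at days 63 and 78. ND_B12 replicate 4 shared day 21 with replicates 2 and 3. The part of date in this pair of genes was not tested. The points share library, depth and normalization. The next pairs were Insr with Foxo1 (r 0.683), Igfbp3 with Foxo1 (0.676) and Insr with Igf1r (0.625).

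**Figure D3:**
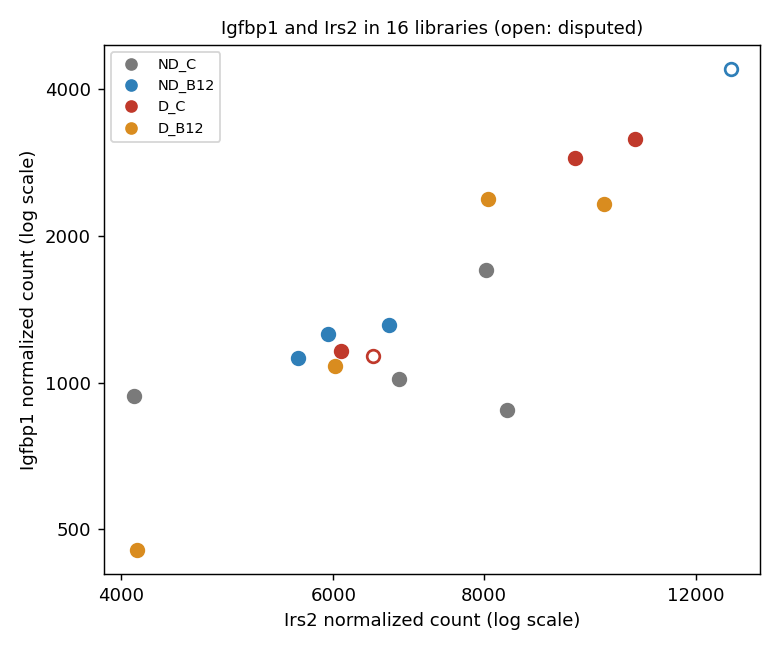
Igfbp1 against Irs2 normalized counts in the 16 libraries, both axes on a log scale, coloured by labelled group, with the 2 disputed libraries open. Igfbp1 was lowest in D_B12 replicate 1, at 453 with Irs2 at 4123. Both were highest in the disputed ND_B12 replicate 4, at 4404 and 12816. Pearson's r was 0.875 over the 16 libraries and 0.977 among the 8 diabetic labels. It was 0.313 in the 7 non-diabetic libraries without ND_B12 replicate 4.

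Within untreated kidneys (D_C against ND_C), 3 binding protein and receptor genes stood apart without overlap. Each D_C library exceeded each ND_C library for Igfbp5, Igfbp3 and Igf1r. That is 3 of 10 members, beside 9.44% of all genes whose groups did not overlap in either direction. Igf1r was 37396, 36797, 34075 and 32212 in ND_C and 38807, 37834, 43676 and 43576 in D_C. The log2 fold changes were 0.47 ± 0.149 for Igfbp5, 0.22 ± 0.072 for Igf1r and 0.21 ± 0.070 for Igfbp3, with adjusted p-values of 0.103, 0.112 and 0.120 by edgeR, and Insr was at 0.16 ± 0.072 (0.254). Thus 0 of 10 passed, where 1.66% of all 25408 genes did. At an unadjusted p below 0.05 there were 4 members, beside 4725 of all genes. DESeq2 called 1603 of the 25408 genes, among them Igfbp5 and Igf1r. The 423 genes behind the 1.66% by edgeR fell to 0 without ND_C replicate 2 or D_C replicate 4 and to 2 without ND_C replicate 3. They rose to 1552 without D_C replicate 1. Without the 2 disputed libraries Igfbp5 (0.56 ± 0.140, adjusted p 0.0264) and Igf1r (0.25 ± 0.069, adjusted p 0.0426) passed, 2 of 10 beside 8.57% of all genes, and Igfbp3 did not (0.150).

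Markers of other cell types moved with this comparison. All 9 endothelial markers, none at 0 in any library, were higher in D_C, 2 of them past the adjusted threshold, and their summed normalized count was 36844 to 40199 in ND_C and 43745 to 52597 in D_C. All 7 stromal markers were higher as well, 1 past the threshold, with a median log2 fold change of 0.32 as for the endothelial ones (0.32) and a summed count of 14292 to 23743 against 19970 to 31052. Of the macrophage markers 6 of 7 were lower, 0 past the threshold, at 6399 to 7412 against 5359 to 6338. Aqp2 and Aqp3, of collecting duct principal cells, were also among the genes called higher. Their part in the receptor and binding protein values was not tested, and in whole kidney more cells of a type and more RNA per cell cannot be told apart.

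Within B12-treated kidneys (D_B12 against ND_B12), the members that stood apart were lower with the diabetic label. Each D_B12 library was below each ND_B12 library for Igfbp4, Igfbp3 and Foxo1, again 3 of 10, beside 11.7% of all genes without overlap. The log2 fold changes were -0.60 ± 0.166 for Igfbp4, -0.26 ± 0.070 for Igfbp3 and -0.21 ± 0.054 for Foxo1, with adjusted p-values of 0.0856, 0.0766 and 0.0713 by edgeR. Igf1 was at -0.53 ± 0.209 (0.204). None of the 10 passed (0, where 0.823% of all 25408 genes did). At an unadjusted p below 0.05 there were 4 members, beside 4317 of all genes. DESeq2 called 1146 of the 25408 genes, among them Igfbp3, Igfbp4 and Foxo1. Without the 2 disputed libraries the count stayed 0, beside 2.8% of all genes, with Igfbp4 at -0.62 ± 0.157 (adjusted p 0.0518). Leaving out D_C replicate 2, which is in neither group and enters through the shared spread, gave Igfbp4 an adjusted p of 0.0333. All 5 hepatocyte markers were lower in D_B12, 1 past the threshold, with a summed count of 5340 to 6895 against 6604 to 10876 in ND_B12. Macrophage markers were lower for 6 of 7, 0 past the threshold, at 4472 to 4797 against 4589 to 6766, and 8 of 11 clock genes had an unadjusted p below 0.05 (median log2 fold change -0.50). Their part in the Igfbp4, Igfbp3 and Foxo1 values was not tested.

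The second question is what B12 does. In non-diabetic kidneys (ND_B12 against ND_C), 4 members were higher in every treated library than in every untreated one, the receptor genes Insr and Igf1r, Igfbp3 and Foxo1. That is 4 of 10 beside 4.81% of all genes. Insr was 16355, 15472, 14621 and 15683 in ND_C and 17838, 16737, 17590 and 18907 in ND_B12, and Foxo1 was 5764, 6233, 6044 and 5809 against 6670, 6477, 6621 and 7263. The differences were small, at 0.20 ± 0.072, 0.22 ± 0.072, 0.22 ± 0.070 and 0.19 ± 0.054 on the log2 scale for Insr, Igf1r, Igfbp3 and Foxo1. Their adjusted p-values lay between 0.570 and 0.590 by edgeR, and 0% of all 25408 genes passed, with 1937 at an unadjusted p below 0.05 and 6 called by DESeq2, none of them a member, while 4 members had an unadjusted p below 0.05. Without the 2 disputed libraries the 4 differences were 0.16, 0.17, 0.18 and 0.14. Without the 2 libraries of disputed treatment, ND_C replicate 3 and ND_B12 replicate 1, they were 0.17, 0.18, 0.25 and 0.20, with 2 of 10 members at an unadjusted p below 0.05. The separation is that of the labels, since these libraries held 14621 and 17838 counts of Insr and would overlap the other group if exchanged. All 9 endothelial markers were higher in ND_B12 too, with a summed count of 41226 to 47930 against 36844 to 40199, while 7 of 7 macrophage markers were lower, and the part of either was not tested. This comparison shares ND_C with the untreated diabetes comparison, in which Igf1r and Igfbp3 also stood above it.

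In diabetic kidneys (D_B12 against D_C, by the labels alone), Igfbp3 and Foxo1 were lower in every treated library than in every untreated one, 2 of 10 beside 6.58% of all genes. The same D_B12 libraries enter the B12-treated diabetes comparison, in which Igfbp3 and Foxo1 also stood below ND_B12, so these are not separate observations. Igfbp3 was 18822, 16029, 15879 and 17687 in D_C and 14648, 12844, 15710 and 14034 in D_B12, at -0.26 ± 0.070 with an adjusted p of 0.135. Foxo1 was 6169, 6320, 6782 and 6160 in D_C and 6140, 5630, 5950 and 5670 in D_B12, at -0.12 ± 0.054 with an adjusted p of 0.344. Igf1 lay at -0.55 ± 0.209 (adjusted p 0.256), with D_C replicate 2, at 717, inside the D_B12 range. By edgeR 0% of all genes passed, 3468 of them and 3 members had an unadjusted p below 0.05, and DESeq2 called 681, Igfbp3 alone among the members. Without the 2 disputed libraries 0.87% of genes passed and again 0 of 10 members, with Igfbp3 at -0.20 ± 0.065 (adjusted p 0.131). Endothelial markers were lower in D_B12 for 8 of 9, the summed count being 39544 to 46587 against 43745 to 52597. Clock genes differed as well, with Bmal1, a core activator of the clock, at 567 to 1017 in D_B12 and 230 to 324 in D_C. The paper reports the opposite direction, with Bmal1 suppressed by B12 in diabetic kidneys. The treatment labels of these diabetic libraries are those that the published means turned. Stromal and macrophage markers were lower for 7 of 7 each. The part of any of these in the Igfbp3 and Foxo1 values was not tested.

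**Figure D4:**
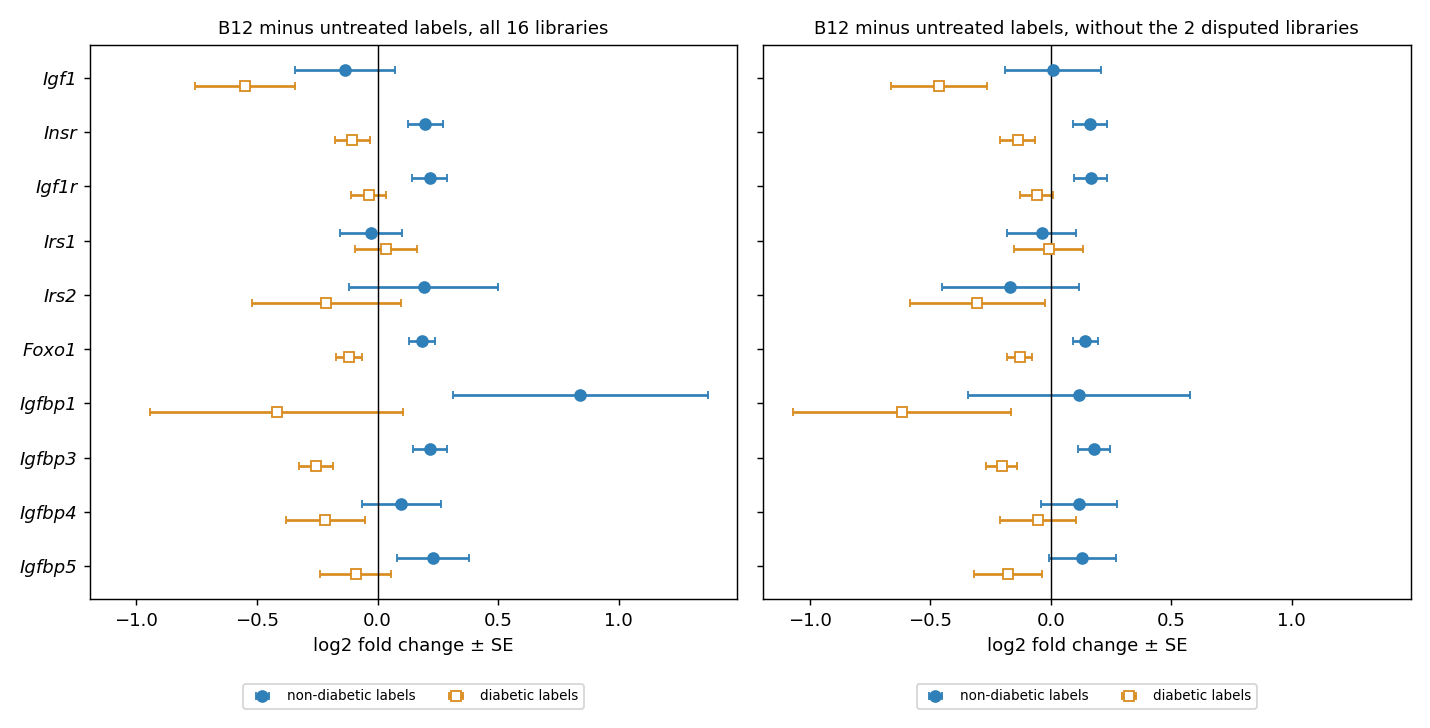
Log2 fold change ± SE of each gene for B12 against untreated labels, in non-diabetic (filled circles) and diabetic (open squares) kidneys, with all 16 libraries on the left and without the 2 disputed libraries on the right. Insr, Igf1r, Igfbp3 and Foxo1 lie right of 0 in non-diabetic and left of 0 in diabetic kidneys in both panels.

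The interaction tests whether the B12 difference itself differs between diabetic and non-diabetic kidneys. It was negative for 9 of 10 members, that is lower in diabetic kidneys, with a median of -0.32 beside -0.0028 for all genes. This sign depends on the treatment labels of the diabetic libraries, which the comparison with the published means turned. With them turned, 6 of 10 members were negative with a median of -0.037, and Igfbp3 lay at 0.038 ± 0.098, Foxo1 at -0.066 ± 0.076, Insr at -0.093 ± 0.102 and Igf1r at -0.18 ± 0.102. By the labels Igfbp3 came closest to the threshold, at -0.47 ± 0.098 with an adjusted p of 0.0559, followed by Foxo1 at -0.30 ± 0.076 (0.0856), Insr at -0.30 ± 0.102 (0.165) and Igf1r at -0.25 ± 0.102 (0.233). Of all genes 0% passed by edgeR, the smallest adjusted p being 0.0521, although 4093 of them and 4 members had an unadjusted p below 0.05, and DESeq2 called 923, with Igfbp3 and Foxo1 among them. EdgeR called 753 genes with the date as a covariate, 147 with the replicate number as a block, 87 without the 2 disputed libraries, and 118, 213, 266 and 145 when ND_C replicate 4, ND_B12 replicate 1, D_C replicate 1 or D_C replicate 2 was left out. Leaving out ND_B12 replicate 1 gave Igfbp3 an adjusted p of 0.0393 and leaving out D_C replicate 2 gave 0.0457, while without the 2 disputed libraries it was 0.0747. The endothelial markers showed the same sign in 9 of 9, with a median of -0.41, and 10 of 11 clock genes had an unadjusted p below 0.05. The part of either was not tested.

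Among 77 other genes of the pathway, listed by role, 73 were tested, and in the average diabetes comparison 4 passed, 3 higher and 1 lower with the diabetic label, beside the 3.02% of all genes. Of the 4, 3 belong to the 8 genes of IGF binding and its proteases. The lists were chosen with earlier results of these data known, so this share is a description and not a test. Pappa, which encodes the protease PAPP-A that cleaves IGFBP-4, was 1.64-fold higher (log2 0.71 ± 0.155, adjusted p 0.0266). Stc1, whose product inhibits PAPP-A, was 2.07-fold higher (1.05 ± 0.188, adjusted p 0.0128). Pappa2, whose protease cleaves IGFBP-3 and IGFBP-5, was lower (-2.44 ± 0.533, adjusted p 0.0266). The other was Pik3r3, a regulatory subunit of phosphoinositide 3-kinase, at 0.39 ± 0.088 (adjusted p 0.0301), 1 of 20 genes of the kinase cascade. All adjusted p-values are edgeR's over 25408 genes.

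Pappa2 showed the sharpest split. It had 172, 145, 97.4 and 211 normalized counts in ND_C, and 98.3, 84.4, 128 and 7.74 in ND_B12. It had 102, 5.64, 11.6 and 20.6 in D_C, and 9.03, 13.6, 13.8 and 10.9 in D_B12. Only the 2 disputed libraries fell on the side opposite to their label, and without them the non-diabetic range, 84.4 to 211, lay wholly above the diabetic range, 5.64 to 20.6. The log2 fold change was then -3.36 ± 0.256 (adjusted p 1.4e-05, edgeR). The 2 libraries left out were picked by expression in the same counts, and that choice favours such a split.

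Stc1 was 387, 325, 308 and 299 in ND_C, 322, 325, 383 and 628 in ND_B12, 375, 720, 858 and 754 in D_C, and 1181, 989, 695 and 617 in D_B12, with the same 2 libraries out of place. Pappa was 900 to 1035 in ND_C and 1053 to 1495 in ND_B12, and 1064 to 2281 in D_C and 1141 to 2277 in D_B12. Pik3r3 was 1108 to 1484 in ND_C and 1181 to 1374 in ND_B12, against 1407 to 1979 and 1424 to 1966 with the diabetic label. Without the disputed libraries the labels did not overlap for Stc1, at 299 to 387 against 617 to 1181, or for Pappa, at 900 to 1102 against 1141 to 2281, and overlapped for Pik3r3. Collecting duct principal cell markers were higher for 5 of 5, with a median log2 fold change of 0.050. Of these 1 was past the threshold, Aqp2 (log2 1.14 ± 0.270). Macrophage markers were lower for 6 of 7, their summed count being 4589 to 7412 and 4472 to 6338. The part of either cell type was not tested. Single libraries decided 3 of the 4 calls, since leaving 1 out brought the adjusted p up to 0.0614 for Pappa, 0.0619 for Pappa2 and 0.0684 for Pik3r3, and with the date as a covariate 0 of the 4 passed.

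**Figure D5:**
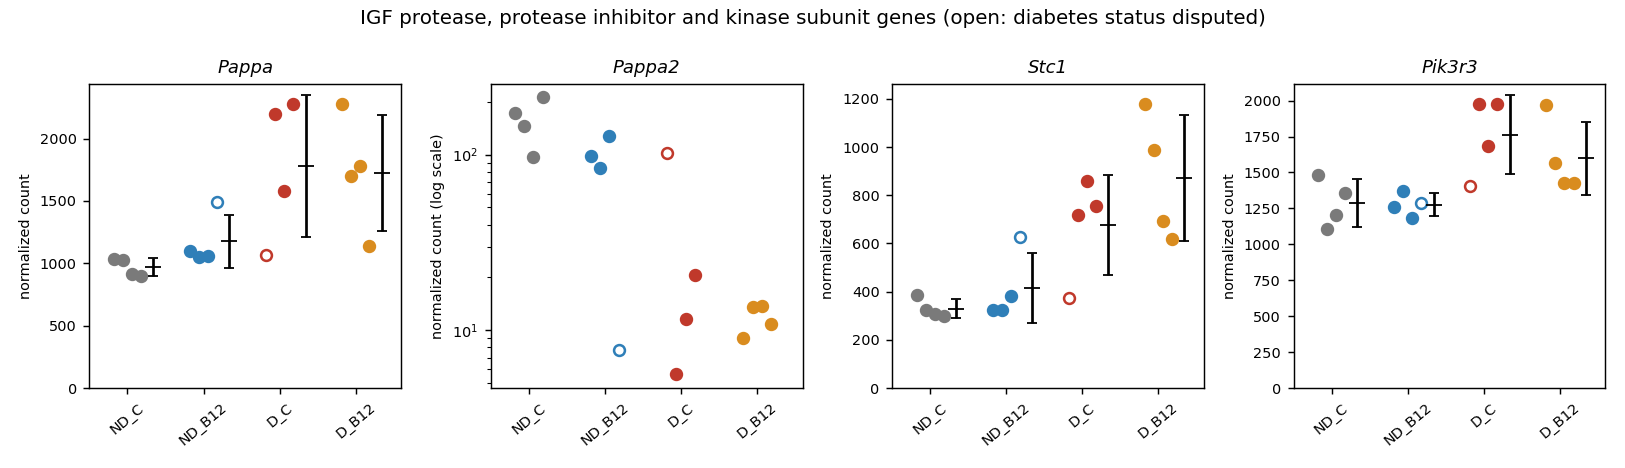
Normalized counts of Pappa, Pappa2 (log axis), Stc1 and Pik3r3 in each library by labelled group, with mean and SD (n = 4) where the axis starts at 0. In each panel for the protease genes and Stc1 the open points, which are the 2 disputed libraries, sit with the groups of the other diabetes status.

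In the remaining lists 0 genes passed by edgeR with all 16 libraries. These were the ligands (1 tested, Igf2), the other receptors (2), the adaptors (7, of which 1 had an unadjusted p below 0.05), the inhibitors (14, of which 3), the other FoxO factors (3, of which 1), the FoxO target genes (12, of which 3) and the genes that insulin raises (6). Without the disputed libraries 12 of 73 passed, 9 higher and 3 lower, beside the 10.2% of all genes. They took in 3 of 12 FoxO targets, all higher. Fbxo32, a ubiquitin ligase, was at 0.48 ± 0.090. Sesn3 (0.39 ± 0.081) and Sesn1 (0.22 ± 0.058) encode stress-induced sestrins. Of the 12 FoxO targets as a whole, 9 were higher and 3 lower. Their median log2 fold change was 0.18, beside 0.0042 for all genes. Of the genes that insulin raises, Scd1, a fatty acid desaturase, was lower at -2.04 ± 0.260. It had 7370 to 27604 normalized counts in the 7 non-diabetic libraries and 2641 to 4596 in the 7 diabetic ones. The disputed ND_B12 replicate 4 and D_C replicate 1 had 2134 and 37447. Adipocyte markers were lower for 5 of 7, their summed count being 2191 to 16287 and 2918 to 20549 in the same 7 and 7 libraries. Their part in the Scd1 values was not tested. Foxo3 was higher (0.22 ± 0.063), Foxo4 was lower (-0.17 ± 0.045), and Igf2r, the IGF-2 scavenger, was higher (0.39 ± 0.090). Phlpp1, a phosphatase acting on AKT, was higher (0.16 ± 0.048). These were named after their values were seen. In the other 5 comparisons 0 of the 73 passed by edgeR with all libraries. Between 8 and 18 of the 73 had an unadjusted p below 0.05, beside 1937 to 4725 of all 25408 genes. Without the disputed libraries 13 passed for diabetes in untreated kidneys, 11 higher and 2 lower, beside 8.57% of all genes. For diabetes in B12-treated kidneys 4 passed, 1 higher and 3 lower, beside 2.8%. For B12 in diabetic kidneys 1 FoxO target passed, lower, beside 0.87%. For B12 in non-diabetic kidneys and for the interaction 0 passed.

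Each member was carried by a single transcript. Counts per transcript put 97.1% of Insr, 96.1% of Igf1, 98.5% of Igf1r, 96.7% of Igfbp3 and 99.6% or more of the other 6 on their main transcript. In each library the share of the main Insr transcript lay between 96.4% and 97.9%. The table holds 1 full-length Insr transcript, so the receptor forms with and without the alternative exon could not be separated. Of 33 transcripts of the members, 25 were tested in the average diabetes comparison and 0 passed by edgeR, as did 0% of all 66503 transcripts tested, with 6 of the 25 and 6760 of all at an unadjusted p below 0.05. Without the disputed libraries 0 of the members' transcripts passed.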

How the data were processed

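Kidney RNA of 16 mice was sequenced as paired reads, 1 library per mouse, and replicates are separate mice. The authors aligned reads with STAR to GRCm39 (GENCODE vM35) and deposited estimated counts per gene and per transcript made with StringTie and its prepDE script. Both tables already held whole numbers. Versions of these tools are not given in the sources used here, except bcl2fastq 2.20.0 in the submitters' processing notes. Columns were matched to libraries by the number that ends each library name, and 0 columns were left over.

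Testing covered genes whose counts summed to 100 or more over the 16 libraries, by edgeR 4.0.16 in R 4.3.3 (glmQLFit, glmQLFTest, TMM, group means by label, residual degrees of freedom of 12, two-sided, Benjamini-Hochberg adjustment over all genes, threshold 0.05). The study used DESeq2, run here (1.42.0) as an alternative. The others were upper-quartile and median-of-ratios scaling, a minimum of 1 count, filterByExpr, the compared groups alone, the date in the library name, the replicate number as a block, the 2 disputed libraries left out, and each library left out. After seeing the data, 2 non-diabetic libraries of disputed treatment were left out, and the treatment labels of the diabetic libraries were turned in the interaction. To normalize, each count was divided by its library's median-of-ratios size factor. TPM used GENCODE vM39 transcript lengths, found for 148994 of 149194 transcripts with 99.8% of counts. Tests were tried on simulated data. The common biological coefficient of variation was 0.201, so for genes with many counts mice and not depth limit precision. For genes with few counts, such as Pappa2 in the diabetic libraries, counting error limits it as well. Count limits cover counting error only.

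The members and gene lists were chosen with earlier results of these data known. Every member is described, and other pathway genes are named where their adjusted p was below 0.05 in the average diabetes comparison. Outside the average diabetes comparison, alternatives were computed for members with an unadjusted p below 0.05, a choice made after their values were seen. Python 3.11.15 ran pandas 2.3.3, numpy 2.4.6 and, for plots, matplotlib 3.10.9.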

Additional observations from a re-analysis of the deposited data

Results flagged for a closer look

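Within the 4 mice of a group, 5 values stood far from the other 3 by Dixon's criterion, which sets the gap to the nearest value against the whole range. Of the 14 genes in 4 groups, 56 sets were examined, and chance alone flags about 1 in 20. In ND_B12 replicate 4, Irs2 was 12816 normalized counts where the others were 5608.5 to 6672.3, Igfbp1 was 4403.6 where the others were 1124.5 to 1313.2, and Pappa was 1494.9 where the others were 1053.1 to 1101.6. In D_C replicate 1, Pappa2 was 101.64 where the others were 5.64 to 20.6. These are the 2 libraries of disputed diabetes status. In ND_C replicate 4, whose diabetes status is not disputed, Igfbp1 was 1704.5 where the others were 880 to 1019.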

How the results depend on the processing

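The number of members called was 0 in every comparison as reported, and no member was called for B12 in non-diabetic kidneys or among transcripts under any alternative run. For the average diabetes comparison it was 2 with DESeq2 and 2 without the disputed libraries (Igfbp4 and Igfbp5 each time), 1 with filterByExpr (Igfbp4), and 0 to 2 with single libraries left out, where D_C replicate 1 gave 2 and ND_B12 replicate 4 gave 1. For diabetes in untreated kidneys it was 2 with DESeq2, 2 without the disputed libraries and 0 to 1 with single libraries left out (Igfbp5, without D_C replicate 1). For diabetes in B12-treated kidneys it was 3 with DESeq2, 1 with the compared groups alone (Igfbp4) and 0 to 1 with single libraries left out (Igfbp4, without D_C replicate 2). For B12 in diabetic kidneys it was 1 with DESeq2 (Igfbp3) and 1 with the date (Igfbp1), and for the interaction 2 with DESeq2, 1 with the date (Igfbp1) and 0 to 1 with single libraries left out (Igfbp3, without ND_B12 replicate 1 or D_C replicate 2). The cause was not tested. With the date as a covariate the average log2 fold changes reversed for Insr (-0.15), Irs2 (-1.19), Igf1 (0.21), Igf1r (-0.036) and Igfbp1 (-2.43), that of Igf1 in B12-treated kidneys reversed (0.16), and no pathway gene passed, with adjusted p-values of 0.321 for Pappa, 0.749 for Pappa2, 0.299 for Stc1 and 0.308 for Pik3r3. Leaving out the disputed libraries reversed Irs1 (0.021). Turning the treatment labels of the diabetic libraries, tried after seeing the data, reversed the interaction of Igfbp3 (0.038). Leaving out single libraries reversed the averages of Insr, Irs1 and Irs2, which were near 0, over ranges of -0.027 to 0.024, -0.072 to 0.042 and -0.046 to 0.24.

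Single libraries also decided pathway calls. Pappa lost its call without ND_C replicate 2 or 3, ND_B12 replicate 1, 2 or 3, or D_B12 replicate 1 or 3 (adjusted p 0.0501 to 0.0614). Pappa2 lost it without ND_B12 replicate 1, 2 or 3, D_C replicate 4, or D_B12 replicate 1 or 3 (0.0511 to 0.0619), and Pik3r3 without ND_C replicate 2 or 3, ND_B12 replicate 1, 2 or 3, D_C replicate 2 or 4, or D_B12 replicate 1 (0.0511 to 0.0684). Stc1 kept its call in each. At a minimum of 1 count Pik3r3 lost its call (adjusted p 0.0517). Over all genes the average comparison called 767, 1832 with DESeq2, 427 at a minimum of 1 count, 0 with the date, 478 with the block, and 235 (without ND_B12 replicate 3) to 1700 (without D_C replicate 1) with single libraries left out. Diabetes in untreated kidneys called 423 genes, 0 to 1552 with single libraries left out, and diabetes in B12-treated kidneys 209, 0 (without ND_B12 replicate 2 or D_B12 replicate 1, 2 or 3) to 441 (without D_C replicate 2). The interaction called 0, 0 to 266 with single libraries left out, and 35 without the 2 non-diabetic libraries of disputed treatment. Same-numbered libraries of different groups did not deviate together (r -0.18 to 0.17 over 24 pairs), so the numbers pair nothing. With the replicate number as a block, 0 members were called in each comparison and 0 of their transcripts, Pappa had an adjusted p of 0.0515 and Pik3r3 0.0508.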
